A study of Homo sapiens with 4 samples.

Results

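The lysosomal hydrolases, lysosomal membrane proteins and proton pump subunits comprise 35 genes here, taken from a list: 8 cathepsins, 8 glycosidases, 7 other hydrolases, activators and lipid carriers, 5 membrane proteins and 7 genes of the V-ATPase. The list was chosen with earlier results of these data known. Every array probe set annotated to exactly 1 gene, that gene being on the list, was taken. This gave 114 of the 49395 probe sets of the array, and 35 of the 18132 genes that have such a probe set. No probe set annotated to several genes named one of the 35.

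The samples were 4 human expression arrays of LNCaP cells (LNCAP in the labels), an androgen-responsive prostate cancer line. In 2 of them the cells had received exosomes, small vesicles released by cells, produced by PC-3, an androgen-independent prostate cancer line. The other 2 were cells given PBS, a buffer; their labels call them normal and give no agent. Both groups were grown in the same RPMI-1640 medium with fetal bovine serum. No source used here gives the dose, the time of exposure or whether the arrays of a group came from separate cultures, so the p-values measure only the spread between these arrays, which may be technical. Each group is 1 established cell line, and in bulk RNA a change in the number of cells of a kind and a change in RNA per cell cannot be told apart.

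Lysosomes are acidic compartments in which proteins, glycans and lipids taken up from outside or delivered from inside the cell are broken down. The V-ATPase pumps protons into them, soluble hydrolases work at that low pH, and heavily glycosylated membrane proteins line the membrane and carry products out. Vesicles that a cell takes up by endocytosis can reach this compartment. Many lysosomal genes carry the palindromic CLEAR element, an E-box bound by TFEB and related factors, near their start.

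The E-box copies just before the start of the listed genes are shown because that shared element is what the class is best known for. RefSeq promoter entries (GRCh38.p14) were matched for 24 of the 35 genes. In the 250 bases before the start, CACGTG was present in 7 of these 24 genes (29.2%), against 6.34% of all 35116 entries and 9.82% of the 14425 measured genes with an entry. The motif and its longer form TCACGTGA are palindromes, so 1 search covers both strands, and the longer contains the shorter. TCACGTGA was present in 5 of the 24 genes (20.8%), against 0.854% of all entries and 1.55% of the measured genes with an entry. The stretches run 5′ to 3′ on the gene's strand, end before the start, and have the motif in its longest form in capitals.
NEU1 (chr6:31862918-31862971, minus strand): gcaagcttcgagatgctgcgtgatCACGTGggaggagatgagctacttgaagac
CTSD (chr11:1763945-1763998, minus strand): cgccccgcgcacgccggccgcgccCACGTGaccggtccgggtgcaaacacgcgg
CTSA (chr20:45891269-45891334, plus strand): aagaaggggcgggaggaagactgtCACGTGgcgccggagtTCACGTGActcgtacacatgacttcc
GAA (chr17:80101480-80101580, plus strand): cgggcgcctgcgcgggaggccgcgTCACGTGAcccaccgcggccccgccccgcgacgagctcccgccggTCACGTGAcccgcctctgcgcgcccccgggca
MCOLN1 (chr19:7522558-7522623, plus strand): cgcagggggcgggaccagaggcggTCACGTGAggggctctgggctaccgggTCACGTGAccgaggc
ATP6V0D1 (chr16:67481186-67481241, minus strand): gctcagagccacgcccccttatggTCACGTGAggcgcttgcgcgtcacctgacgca
LAMP1 (chr13:113297023-113297238, plus strand): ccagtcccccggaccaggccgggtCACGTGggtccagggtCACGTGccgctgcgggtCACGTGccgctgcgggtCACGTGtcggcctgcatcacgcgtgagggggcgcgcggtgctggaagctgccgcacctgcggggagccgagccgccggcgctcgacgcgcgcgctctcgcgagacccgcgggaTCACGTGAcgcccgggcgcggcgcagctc
LAMP1 held 5 copies of CACGTG, GAA, MCOLN1 and CTSA 2 each, and NEU1, CTSD and ATP6V0D1 1 each. A match describes these letters only, and no binding was measured.

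Array values were compared as log2 of the intensity plus 1, PC-3 exosomes minus PBS, in a limma fit over all 18132 genes with 1 probe set per gene, the brightest. A gene was called at an adjusted p under 0.05 (Benjamini-Hochberg over all genes). Median intensities of the 4 arrays lay between 110.8 and 112.4, and precision is limited by there being 4 arrays. Of 8 prostate markers 6 were measured, and they summed to 39353 and 39809 with exosomes, against 40154 and 39063 with PBS, with KLK3 at 13974 and 14046 with exosomes, against 14526 and 13847 with PBS. Single markers of this list went both ways. TMPRSS2 had 7120 and 7328 with exosomes, above 6509 and 6636 with PBS (log2 fold change 0.14, limma adjusted p = 0.173). KLK2 and HOXB13 had both exosome arrays below both PBS arrays, with log2 fold changes of -0.07 and -0.05. The 6 myeloid markers, of cells rich in lysosomes, summed to 434 and 419 with exosomes, against 432 and 449 with PBS, and PTPRC, which defines leukocytes, was at most 16.1, near the lowest values on the arrays. The 5 PC-3 markers summed to 814 and 838 with exosomes, against 890 and 857 with PBS, and the 5 fibroblast markers to 264 and 273 with exosomes, against 256 and 280 with PBS. The 6 brain markers, fixed because the extraction text speaks of brain tissue, summed to 1418 and 1429 with exosomes, against 1269 and 1326 with PBS. Within that list MBP had 867 and 868 with exosomes and 764 and 764 with PBS (log2 fold change 0.18, limma adjusted p = 0.201). As the mean of its 7 probe sets MBP had 0.08 (limma adjusted p = 0.754). GFAP, which defines astrocytes, had 275 and 299 with exosomes and 255 and 271 with PBS (log2 fold change 0.12, limma adjusted p = 0.607), and 0.02 as the mean of its probe sets. The part of these markers in the lysosomal values was not tested.

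None of the 35 lysosomal genes passed the test: 0 were called higher and 0 lower, where 0.7% and 0.188% of all genes were. At an adjusted p under 0.10 there were 3 (CTSH, PSAP and NEU1), where 1.12% of all genes were higher. Most of the 35 nevertheless lay slightly higher after PC-3 exosomes. They were chosen with earlier results of these data known, so the counts below describe this list and are no test of it. Of the 35, 27 had a log2 fold change above 0, against 44% of all genes and 51% of the genes at or above the median level, here called the brighter genes. In 20 both exosome arrays lay above both PBS arrays, against 17.8% of all genes and 23.7% of the brighter ones, and in 3 (CTSZ, GLA and NPC1) both lay below, against 21.9% of all genes. The log2 fold changes had a median of 0.11, against -0.01 over all genes and 0.00 over the brighter ones. At an unadjusted p under 0.05, 15 were higher and 1 lower (42.9% of them higher), where 5.76% and 5.16% of all genes were, and 8.81% of the brighter ones were higher. With the mean of a gene's probe sets in place of the brightest, 11 were higher at that level, where 4.72% of all genes were. These signs depend on the scaling: with arrays centred on the 24 poly-A spike-ins, whose mean was 0.14 higher with exosomes on the log2 scale, 14 of the 35 were above 0 and their median was -0.034, with all genes at -0.15. Centring moves every gene by the same amount, so it leaves the distance between these medians, 0.12, as it was. That distance was 0.083 without PBS replicate 2, 0.15 without PBS replicate 1 and 0.086 with the mean of a gene's probe sets. Folds ran from 0.885 for NPC1 to 1.23 for NAGLU. The 95% intervals reached at most a log2 fold change of 0.48 upward and -0.32 downward, and 16 of the 35 intervals left out 0.

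**Figure D1:**
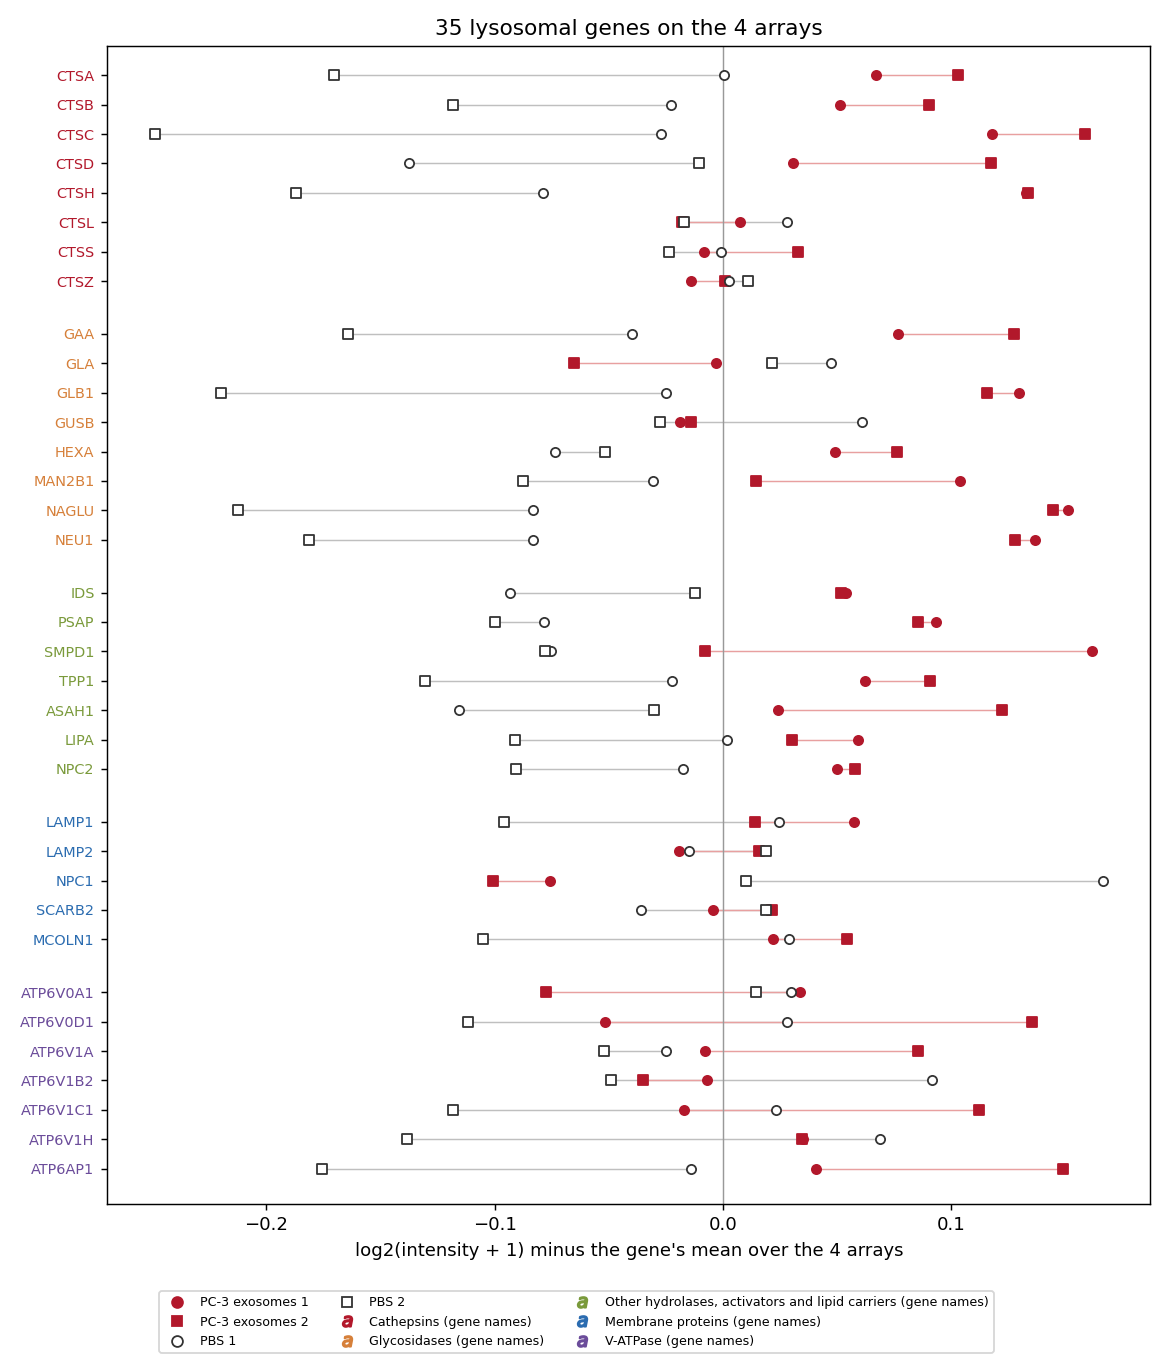
Each row is 1 of the 35 genes, grouped by class, and each symbol 1 array: filled for PC-3 exosomes, open for PBS, circles for replicate 1 and squares for replicate 2. The horizontal axis is log2(intensity + 1) minus the gene's mean over the 4 arrays. In 20 genes both filled symbols lie to the right of both open ones, and the open square of PBS replicate 2 is the leftmost in 24.

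One PBS array was low in most of these genes. PBS replicate 2 had the lowest of the 4 values in 24 of the 35 (68.6%), against 27.7% of all genes and 38.3% of the brighter genes. The median distance from the gene's own mean was 0.04 and 0.06 on exosome replicates 1 and 2, and -0.02 and -0.09 on PBS replicates 1 and 2, on the log2 scale. Without PBS replicate 2 the median log2 fold change of the 35 was 0.07, and 8 were higher at an unadjusted p under 0.05. Without PBS replicate 1 the median was 0.14, and 16 were higher at that level. The median was 0.11 without exosome replicate 1 and 0.10 without exosome replicate 2, with 9 and 6 genes higher at that level. Set against PBS replicate 1 alone, exosome replicate 1 was higher in 23 of the 35 genes and exosome replicate 2 in 26.

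The cathepsins, proteases of the lysosome, had a median of 0.14 on the log2 scale. At an unadjusted p under 0.05 there were 5 of 8 higher and 0 lower, where 5.76% and 5.16% of all genes were. The count higher was 2 without exosome replicate 1, 1 without exosome replicate 2, 4 without PBS replicate 1 and 2 without PBS replicate 2, where the median was 0.089. CTSH, an aminopeptidase that also cleaves within proteins, came closest of all 35 genes to the threshold. It had 1509 and 1510 with exosomes, against 1304 and 1209 with PBS. The exosome arrays nearly coincided and lay above both PBS arrays, a difference of 1.20 times (log2 fold change 0.27, SE 0.052, limma adjusted p = 0.060). CTSC, dipeptidyl peptidase I, which activates granule proteases, had 205 and 211 with exosomes and 185 and 159 with PBS (log2 fold change 0.28, SE 0.089, limma adjusted p = 0.276). CTSB, which cleaves both within proteins and from their end, had 1488 and 1528 with exosomes and 1413 and 1323 with PBS (log2 fold change 0.14, SE 0.051, limma adjusted p = 0.339). CTSD, the main aspartic protease of the lysosome, had 708 and 752 with exosomes and 630 and 688 with PBS (log2 fold change 0.15, SE 0.064, limma adjusted p = 0.447). In CTSC, CTSB and CTSD the groups did not overlap either, but PBS replicate 2 in CTSC and PBS replicate 1 in CTSD lay well below the other PBS array. CTSA, a carboxypeptidase that also protects beta-galactosidase and neuraminidase, had 980 and 1005 with exosomes and 936 and 831 with PBS.

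Closest to 0 were the remaining cathepsins. CTSL, an endopeptidase, had 1431 and 1406 with exosomes and 1451 and 1406 with PBS, and its interval ran from -0.12 to 0.10. CTSZ, a carboxypeptidase, had 1971 and 1991 with exosomes and 1994 and 2005 with PBS, with an interval from -0.11 to 0.08. CTSS, best known from antigen-presenting cells, had 62.9 and 64.8 with exosomes and 63.2 and 62.2 with PBS. Its interval, from -0.16 to 0.21, was wider. The other CTSS probe set had 62.8 and 54.9 with exosomes, above 46.9 and 51.2 with PBS (log2 fold change 0.26, limma adjusted p = 0.524 over all probe sets). The mean of both probe sets was 0.14 (limma adjusted p = 0.528).

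Glycosidases, which strip sugars from glycoproteins, glycolipids and glycosaminoglycans, had a median of 0.16 on the log2 scale. At an unadjusted p under 0.05, 5 of 8 were higher, where 5.76% of all genes and 8.81% of the brighter ones were. That count was 3 without exosome replicate 2 and 4 without any one of the other arrays. NAGLU, which removes N-acetylglucosamine from heparan sulfate, had 432 and 430 with exosomes, against 367 and 335 with PBS. This was the largest fold of the 35, 1.23 (log2 fold change 0.30, SE 0.068, limma adjusted p = 0.112). NEU1, the lysosomal sialidase, had 869 and 864 with exosomes and 746 and 697 with PBS (log2 fold change 0.26, SE 0.056, limma adjusted p = 0.084). GLB1, the beta-galactosidase, had 1102 and 1091 with exosomes and 990 and 865 with PBS (log2 fold change 0.25, SE 0.067, limma adjusted p = 0.192). In all 3 genes the exosome arrays differed by far less than the PBS arrays and lay above both.

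GAA, the acid alpha-glucosidase that degrades glycogen, had 518 and 537 with exosomes and 478 and 438 with PBS. HEXA, a subunit of beta-hexosaminidase, had 889 and 906 with exosomes and 817 and 829 with PBS, and MAN2B1, an alpha-mannosidase, had 466 and 438 with exosomes, against 424 and 408 with PBS. The log2 fold changes of these 3 were 0.20, 0.13 and 0.12, with groups that did not overlap. GLA, the alpha-galactosidase, went the other way, with 1144 and 1095 with exosomes, below 1184 and 1163 with PBS (log2 fold change -0.07, limma adjusted p = 0.685). GUSB, the beta-glucuronidase, overlapped between groups at 1349 and 1353 with exosomes and 1426 and 1341 with PBS.

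All 7 other hydrolases, activators and lipid carriers had both exosome arrays above both PBS arrays by their brightest probe sets. Over all genes that share was 17.8%, and 23.7% over the brighter ones. The log2 fold changes ran from 0.09 to 0.18. Of the 31 probe sets of this class 17 lay so (54.8%), against 17.2% of all probe sets. As the mean of a gene's probe sets TPP1 had 0.03, NPC2 0.04 and LIPA 0.05, and the highest was ASAH1 with 0.20. PSAP, the precursor of the saposins that present lipids to hydrolases, had 4637 and 4612 with exosomes, against 4117 and 4056 with PBS. Both pairs were tight, and the ratio of the groups was 1.13 (log2 fold change 0.18, SE 0.037, limma adjusted p = 0.077). TPP1, a tripeptidyl peptidase, had 1484 and 1513 with exosomes and 1399 and 1298 with PBS (log2 fold change 0.15, SE 0.053, limma adjusted p = 0.315). ASAH1, the acid ceramidase, had 1519 and 1625 with exosomes and 1378 and 1462 with PBS (log2 fold change 0.15, SE 0.054, limma adjusted p = 0.352). In TPP1 and ASAH1 the groups did not overlap, but the gap between them was smaller than the distance between the PBS arrays. SMPD1, the acid sphingomyelinase, had 503 and 447 with exosomes and 427 and 426 with PBS, so exosome replicate 1 stood apart. NPC2, the soluble cholesterol carrier, had 2784 and 2800 with exosomes and 2657 and 2526 with PBS. In 1 of its 4 probe sets, this one, both exosome arrays lay above both PBS arrays. IDS, the iduronate sulfatase, and LIPA, the acid lipase, had the adjusted p-values farthest from the threshold in this class, 0.576 and 0.589 in the limma fit. IDS read 537 and 536 with exosomes and 485 and 513 with PBS, and LIPA read 1293 and 1267 with exosomes and 1243 and 1165 with PBS.

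Membrane proteins had a median of 0.02 on the log2 scale. In 0 of the 5 did both exosome arrays lie above both PBS arrays, against 17.8% of all genes and 23.7% of the brighter ones. The class median was -0.010 without PBS replicate 1, and 0.064 as the mean of probe sets. LAMP1, an abundant glycoprotein of the lysosomal membrane, had 2817 and 2733 with exosomes and 2753 and 2533 with PBS, with overlapping groups (log2 fold change 0.07, SE 0.050, limma adjusted p = 0.668). LAMP2, its relative, needed for fusion with autophagosomes, had 2147 and 2199 with exosomes and 2153 and 2204 with PBS (95% interval of the log2 fold change -0.10 to 0.09). MCOLN1, the calcium channel mucolipin, had 627 and 641 with exosomes and 630 and 574 with PBS (log2 fold change 0.08, SE 0.063, limma adjusted p = 0.735). Without PBS replicate 2 the log2 fold changes of LAMP1 and MCOLN1 were 0.01 and 0.01. SCARB2, the receptor that brings glucocerebrosidase to the lysosome, had 7092 and 7221 with exosomes and 6938 and 7207 with PBS.

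NPC1, which takes cholesterol out of the lysosome together with NPC2, lay lower. It had 670 and 658 with exosomes, against 793 and 711 with PBS (log2 fold change -0.18, SE 0.064, limma adjusted p = 0.340). Both exosome arrays were below both PBS arrays, and PBS replicate 1 was the higher of the PBS pair. It was the single gene of the 35 below 0 at an unadjusted p under 0.05, and it was not past that level without exosome replicate 1, exosome replicate 2 or PBS replicate 1, nor as the mean of its probe sets. Leaving out PBS replicate 1 gave a log2 fold change of -0.099.

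The V-ATPase consists of a membrane part (V0) that carries the protons and a catalytic part (V1) that splits ATP. The median over its 7 genes was 0.08 on the log2 scale, and 5 of them overlapped between groups. In 2 both exosome arrays lay above both PBS arrays and in 0 below, against 17.8% and 21.9% of all genes. ATP6AP1, an accessory protein needed for assembly, had 941 and 1014 with exosomes, against 906 and 810 with PBS (log2 fold change 0.19, SE 0.068, limma adjusted p = 0.329). ATP6V1A, the catalytic A subunit, had 3963 and 4229 with exosomes and 3916 and 3843 with PBS (log2 fold change 0.08, SE 0.044, limma adjusted p = 0.577). ATP6V1C1, the C subunit of V1, had 1626 and 1778 with exosomes and 1672 and 1515 with PBS (log2 fold change 0.10, SE 0.063, limma adjusted p = 0.646). For ATP6V1C1 exosome replicate 1 lay below PBS replicate 1. ATP6V0D1, the d subunit of V0, had 1417 and 1614 with exosomes and 1498 and 1359 with PBS, and ATP6V1H, a regulatory subunit of V1, had 645 and 645 with exosomes and 661 and 572 with PBS. ATP6V0A1, a proton-channel subunit, and ATP6V1B2, the B subunit of V1, averaged slightly below their PBS means. ATP6V0A1 read 336 and 311 with exosomes and 335 and 331 with PBS, and ATP6V1B2 read 1234 and 1210 with exosomes and 1321 and 1199 with PBS. PBS replicate 2 was the lowest array in 6 of the 7. The class median was 0.01 without PBS replicate 2, 0.15 without PBS replicate 1, 0.12 without exosome replicate 1 and 0.03 without exosome replicate 2.

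**Figure D2:**
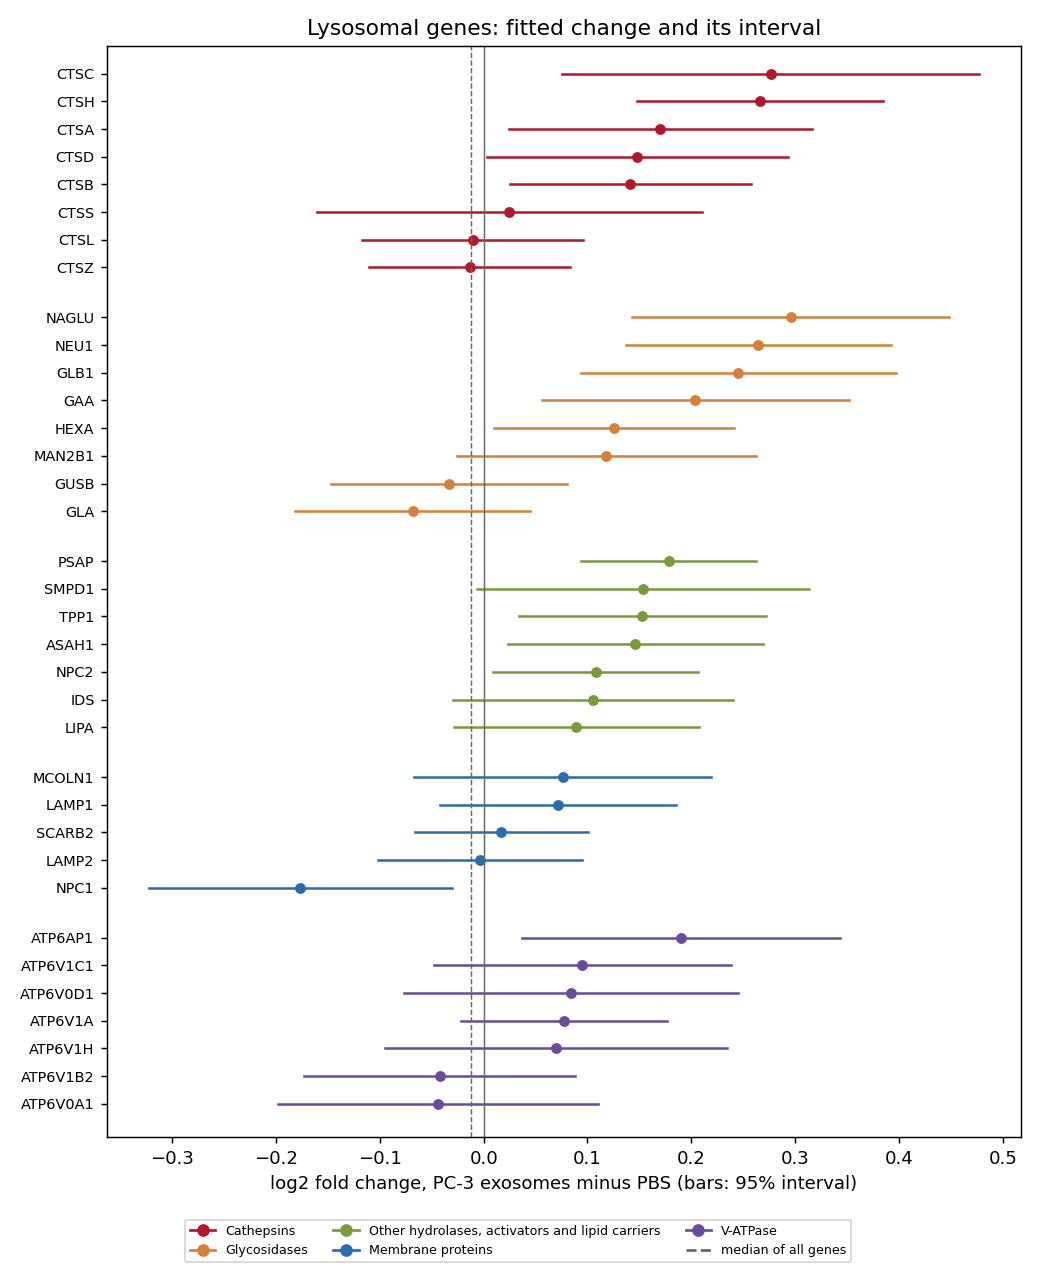
Points are the fitted log2 fold changes of the 35 genes, PC-3 exosomes minus PBS, coloured and grouped by class, and bars their 95% intervals. The dashed line is the median of all 18132 genes, -0.01. The intervals of NAGLU, NEU1 and CTSH start farthest above 0, and NPC1 is the one gene whose interval lies wholly below it.

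Set side by side, the 23 soluble proteins (cathepsins, glycosidases and the other hydrolases, activators and carriers) had a median of 0.15 on the log2 scale. Among them 18 had both exosome arrays above both PBS arrays, against 17.8% of all genes and 23.7% of the brighter ones. At an unadjusted p under 0.05, 14 were higher, where 5.76% of all genes and 8.81% of the brighter ones were. That count of 14 was 8 without exosome replicate 1, 6 without exosome replicate 2, 12 without PBS replicate 1 and 8 without PBS replicate 2. It was 0 with spike-in centring, where 13 of the 23 were above 0, 7 with eBayes without a trend and 9 as the mean of probe sets. The 12 membrane and V-ATPase genes had a median of 0.07. In 2 of the 12 both exosome arrays lay above both PBS arrays, and 1 was higher at an unadjusted p under 0.05. The difference between these groups of genes was not tested, and the order of the classes changed with the setting. Without PBS replicate 1 the V-ATPase median was 0.154, against 0.137 for cathepsins, 0.207 for glycosidases and 0.144 for the other hydrolases. Without PBS replicate 2 it was 0.014, against 0.089, 0.139 and 0.146. As the mean of probe sets it was 0.047, with 7 of 7 genes above 0, against 0.108, 0.138 and 0.096. The 7 genes with the E-box in the printed stretches had a median of 0.15 on that scale, against 0.11 for the 17 with an entry but no CACGTG, and the 7 ranged from 0.07 for LAMP1 to 0.26 for NEU1. For the longer TCACGTGA the order was the other way, with 0.08 for the 5 genes that hold it, against 0.11 for the 19 that do not. Neither difference was tested. Over all measured genes with an entry the medians were 0.00 for the 1416 with CACGTG and -0.01 for the 13009 without it.

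At the level of single probe sets, fitted over the 44988 annotated to 1 gene, 0 of the 114 were called higher and 0 lower, where 0.238% and 0.02% of all such probe sets were. At an adjusted p under 0.10 the count was also 0, where 0.411% were higher. Of the 114, 87 had a log2 fold change above 0 (76.3%), against 45.8% of all. At an unadjusted p under 0.05, 29 were higher and 1 was lower, against 4.73% and 4.14% of all. With spike-in centring 0 were higher and 11 lower at that level. In 53 of the 114 (46.5%) both exosome arrays lay above both PBS arrays, against 17.2% of all, and in 8 both lay below, against 20.5%. Without exosome replicate 2 the count higher at an unadjusted p under 0.05 was 8, and without PBS replicate 2 it was 14. It was 22 without exosome replicate 1 and 31 without PBS replicate 1. Probe sets of a gene share its RNA and are not independent of each other.

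Among the 27 genes with more than 1 probe set, 15 had them all above 0, 12 had both signs and 0 had them all below 0. PSAP had 4 of 4 above 0, from 0.14 to 0.25, and 4 of 4 at an unadjusted p under 0.05. GLB1 had 3 of 3 above 0 and at that level, from 0.17 to 0.25, and CTSB 4 of 4 above 0, from 0.09 to 0.17. In these 3 genes every probe set lay on the same side of 0. ASAH1 had 5 of 5 above 0, from 0.15 to 0.25. For ATP6V1A the brightest probe set gave the smallest of 5 log2 fold changes, 0.08, and the others reached 0.33. The mean of its probe sets was 0.21 (limma adjusted p = 0.332). One ATP6V1A probe set with a smaller signal had 809 and 891 with exosomes and 751 and 692 with PBS, groups that did not overlap.

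LAMP2 had 9 probe sets, 5 above 0, from -0.09 to 0.28. One of them had 605 and 599 with exosomes and 530 and 495 with PBS (log2 fold change 0.23, limma adjusted p = 0.315 over all probe sets), while the brightest gave 0.00. LAMP2 is made as several splice forms, and which form each probe set reads is not given in the sources used here. TPP1 had 5 of 9 above 0 and HEXA 4 of 8. The CTSH value came from 1 bright probe set: the other averaged 46.2 and had a log2 fold change of -0.27, and the mean of both was 0.00. The lower value of NPC1 likewise came from its bright probe set, the dim one having 0.07.

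**Figure D3:**
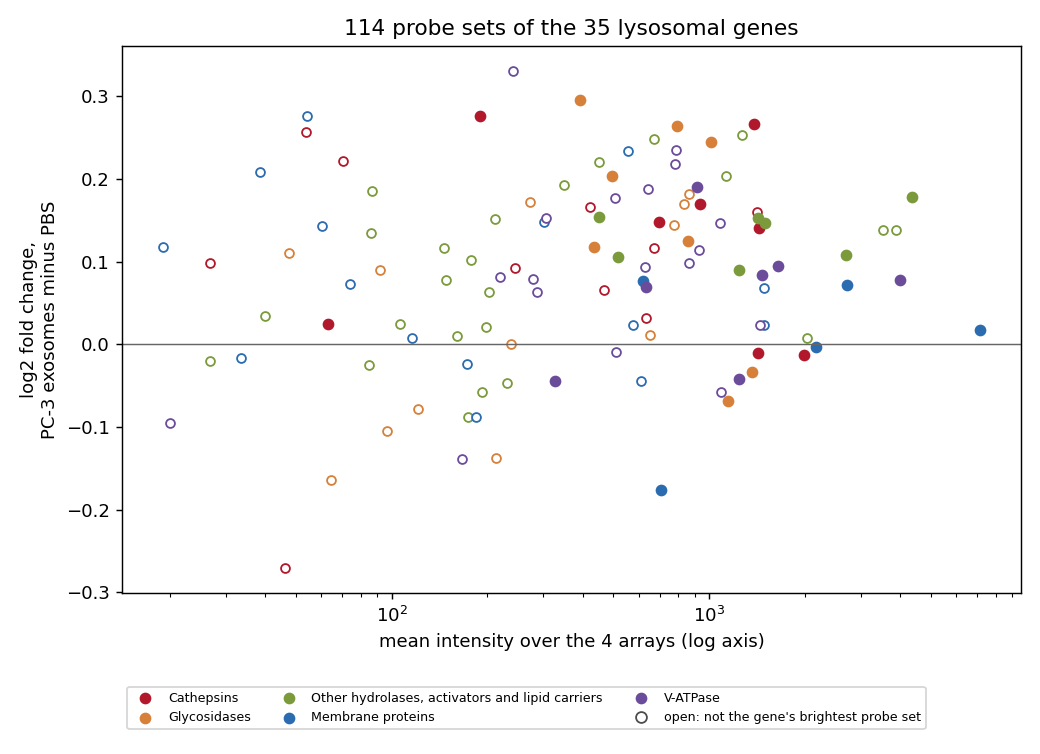
Each point is 1 of the 114 probe sets, placed by its mean intensity over the 4 arrays (log axis) and its log2 fold change, PC-3 exosomes minus PBS. Filled points stood for their gene and open ones did not. Of the 68 with a mean at or above 300, 57 lie above 0.

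By brightness, probe sets with a mean intensity at or above 300 had a median of 0.12 on the log2 scale, with 57 of 68 above 0. Those from 100 to 300 had 0.02 with 16 of 25, and those under 100 had 0.09 with 14 of 21. The part of brightness in these counts was not tested.

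Other genes of the lysosome, 108 in 6 lists of which 98 were measured, had a median log2 fold change of 0.04. This was below that of the 35, with all genes at -0.01. Of the 98, 2 were called higher and 0 lower in the limma fit, where 0.7% and 0.188% of all genes were. SIAE, an esterase that removes acetyl groups from sialic acids, had 1029 and 991 with exosomes, against 812 and 781 with PBS. Both of its probe sets were above 0, 1 of them at an unadjusted p under 0.05, and their mean gave 0.28 (limma adjusted p = 0.141). By its brightest probe set SIAE was at 1.27 times the PBS level with groups well apart (log2 fold change 0.34, SE 0.053, limma adjusted p = 0.023). With an array left out it stayed between 0.31 and 0.37 but was past the threshold in none of the 4 fits, and with spike-in centring it was 0.20 (limma adjusted p = 0.164). CSTA, or cystatin A, an inhibitor of cysteine cathepsins that is found in the cytosol, had 61.9 and 62.8 with exosomes, against 41.3 and 33.3 with PBS. The ratio, 1.67 (log2 fold change 0.74, SE 0.108, limma adjusted p = 0.019), passed the test and was a larger fold than in any of the 35 genes, in its 1 probe set. With an array left out CSTA was past the threshold without PBS replicate 1 alone (limma adjusted p = 0.037), and its log2 fold change ran from 0.58 to 0.89. Its intensity is low and no background value goes with it, which leaves that ratio uncertain.

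Among the 26 other lysosomal hydrolases and activators measured, SIAE was the 1 called, and the median was 0.07. The counts at an unadjusted p under 0.05 were 8 higher and 2 lower, where 5.76% and 5.16% of all genes were. The 17 other V-ATPase subunits had a median of 0.03, and 0 were called. ATP6V0E1, the e subunit of V0, had 8388 and 8278 with exosomes and 7729 and 7787 with PBS (log2 fold change 0.10, limma adjusted p = 0.285). ATP6V0E2, its second form, had 2518 and 2504 with exosomes and 2379 and 2313 with PBS, also 0.10. Of 19 other membrane transporters and channels 0 were called, with a median of 0.03. CD63, a tetraspanin of late endosomes and exosomes, had 4237 and 4224 with exosomes and 3682 and 3923 with PBS (log2 fold change 0.15, limma adjusted p = 0.202). SLC17A5, the sialic acid exporter sialin, had 381 and 418 with exosomes and 323 and 346 with PBS (log2 fold change 0.25, limma adjusted p = 0.212). In each of these 4 genes the groups did not overlap, but they were named for the smallest p in their lists. Both exosome arrays lay above both PBS arrays in 6 of the 17 subunits and 9 of the 19 transporters and channels. The share was 17.8% over all genes and 23.7% over the brighter ones.

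The genes that tag hydrolases with mannose 6-phosphate, sort them or activate them had a median of 0.03, with 0 of 9 called and 0 at an unadjusted p under 0.05 in either direction. IGF2R, the large mannose 6-phosphate receptor, had 4052 and 4163 with exosomes and 3957 and 3906 with PBS (log2 fold change 0.06, limma adjusted p = 0.610). SUMF1, which activates sulfatases such as IDS, had 1186 and 1128 with exosomes and 1092 and 1075 with PBS (log2 fold change 0.09, limma adjusted p = 0.556). Of the 17 MiT/TFE factors and genes of the Rag-Ragulator complex, which signals nutrient state at the lysosome, 0 were called and the median was 0.06. FLCN, or folliculin, which acts on the Rag GTPases, had 283 and 285 with exosomes and 254 and 246 with PBS (log2 fold change 0.19, 95% interval 0.04 to 0.34). That interval is not adjusted for the number of genes, and FLCN did not pass the adjusted threshold. With spike-in centring FLCN had 0.046 (limma adjusted p = 0.758), and as the mean of its probe sets 0.04 (limma adjusted p = 0.897). RRAGD, one of the Rag GTPases, had 848 and 901 with exosomes and 791 and 789 with PBS (log2 fold change 0.15, limma adjusted p = 0.355). TFEB itself, chosen after its values were seen, overlapped between groups at 448 and 398 with exosomes and 421 and 440 with PBS (95% interval -0.19 to 0.14). Of the 10 cystatins and other cathepsin inhibitors CSTA was the 1 called, and the median was 0.04.

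**Figure D4:**
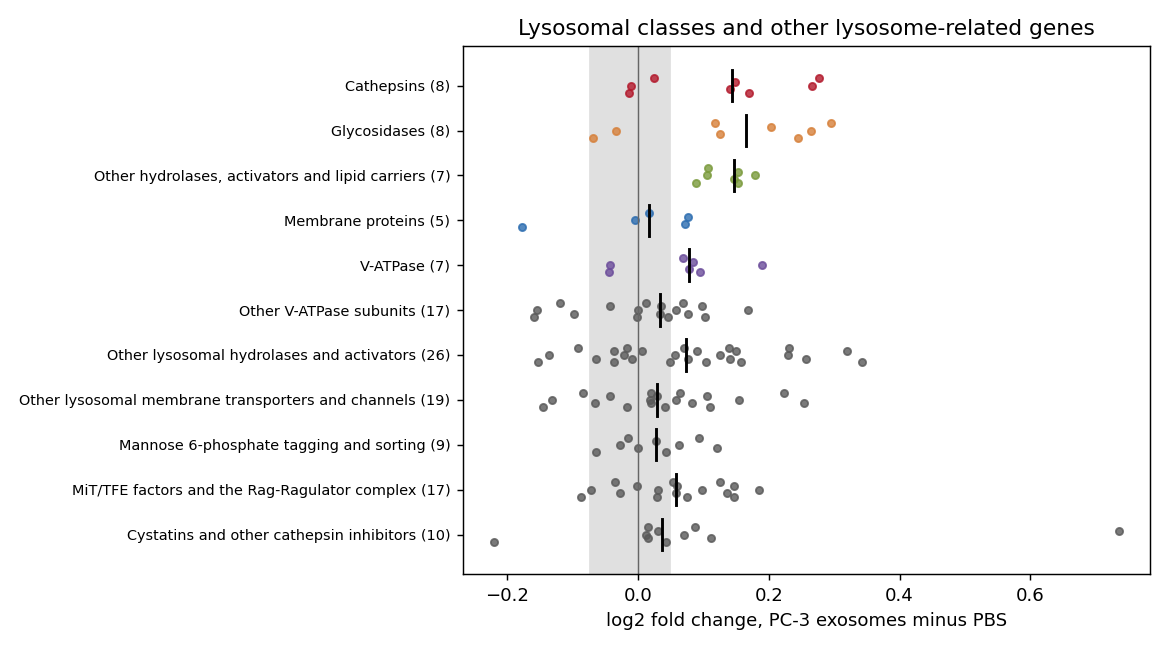
Each point is the log2 fold change of 1 gene, PC-3 exosomes minus PBS, by class of the 35 genes (coloured) and by list of other lysosome-related genes (grey), with the number of genes in brackets. Black bars are medians, and the grey band runs over the interquartile range of all 18132 genes, -0.07 to 0.05. The medians of the 3 soluble classes, 0.14, 0.16 and 0.15, lie farthest to the right of the band, that of the V-ATPase genes, 0.08, less far, and CSTA is the point at 0.74.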

How the data were processed

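The authors deposited 1 table of normalized intensity values, linear and 1 per probe set, for 4 Affymetrix arrays. Per the submitters' processing notes MAS5 and RMA were used, without role, order or version. No genome build for the annotation is given in the sources used. All sample labels name LNCAP, although the extraction protocol in them is written for brain tissue; groups follow the sample labels.

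Gene names came from the platform annotation. The table held 102 controls, 1832 probe sets with several genes and 2473 with none, all left out. After adding 1 and taking log2, values were fitted with limma 3.58.1 in R 4.3.3 (lmFit, eBayes with a trend), two-sided. The probe set with the highest mean log2 value stood for a gene. The fit had 2 residual and 7.0 prior degrees of freedom, and the median SE over all genes was 0.078. It was tested on simulated data. The members, gene lists and alternatives were chosen with earlier results of these data known.

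Values per array are given for the 3 members of each class with the smallest p, for LAMP1, LAMP2 and CTSD, and for the rest more briefly. From each other list up to 4 called genes, or else the 2 with the smallest p, were named. Figures were drawn with matplotlib 3.10.9.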

Additional observations from a re-analysis of the deposited data

How the results depend on the processing

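At the reported setting 0 of the 35 genes were past the threshold. The count higher was 3 with quantile normalization (CTSH, PSAP and NEU1), 2 with each array centred on its median (CTSH and PSAP), 4 among genes at or above the median level (CTSH, NEU1, PSAP and NAGLU), 2 at or above the 30th percentile (CTSH and PSAP) and 3 at an adjusted p under 0.10. Over all genes fitted, the counts higher in these settings were 178, 179, 212, 178 and 203, against 127 at the reported setting. The 2 settings filtered by level were fitted and adjusted over fewer genes, and what moved the count in any setting was not tested. It was 0 with a pseudocount of 16, without a trend, with robust eBayes, as the mean of probe sets, with the replicate block and without any of the 4 arrays (0 to 0). Leaving out an array moved the median of the 35 genes between 0.07 and 0.14, and of the 114 probe sets between 0.06 and 0.14. Centring on the 24 poly-A spike-ins, which differed by 0.14 on the log2 scale between groups, moved the median of all genes to -0.15, of the 35 to -0.034, of the 114 probe sets to -0.045 and of the 98 other genes to -0.096. There 14 of the 35 were above 0, and NPC1 was called lower (log2 fold change -0.32, limma adjusted p = 0.024). No probe set was called higher in any of the settings run. Among the 98 other genes the count higher was 1 with spike-in centring and 1 as the mean of probe sets, 0 without a trend, 0 with the replicate block, and 0 to 1 without an array. Same-numbered arrays did not deviate together (correlation over genes -0.04), so the numbers were not taken as pairs. With the replicate block 14 of the 35 were higher at an unadjusted p under 0.05 in place of 15, and without a trend 7. With spike-in centring 0 were higher and 4 lower at that level, in place of 15 and 1.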
